A study of Rattus norvegicus with 12 samples.

Results

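The genes described here are Fos, Fosb, Fosl1, Fosl2, Jun, Junb and Jund, the family that encodes the subunits of the AP-1 transcription factor. They were taken from the array annotation as every probe set whose single gene symbol is one of these 7 names, dim ones included, with no filter on their measured values. The family itself was chosen with earlier results of these data known. All 7 were found among the 10412 genes named singly on the array, with 11 of its 15923 probe sets: 3 for Jun, 2 each for Fos and Jund, and 1 each for Fosb, Fosl1, Fosl2 and Junb. Their signal was read on 12 single-colour oligonucleotide arrays, each with hippocampal RNA from a pool of 3 to 4 rats.

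The 4 groups of 3 pools combined a treatment given at postnatal day 20 with the housing that followed it. KA_enriched rats received KA, read as kainic acid (an agonist of glutamate receptors used to induce seizures), and lived in an enriched environment, 8 rats to a large cage. PBS_enriched rats received phosphate-buffered saline and lived in the same way. KA_isolated rats received KA and were then kept singly for 10 days, and PBS_isolated rats received the saline and were kept singly for as long. The labels name no strain, sex or dose, and give no length of stay for the enriched groups. No group lived in ordinary group housing, so enrichment and isolation cannot be told apart as the source of a housing difference, and neither can enrichment and the number of cage mates. Litters and cages of the pooled animals are not given, so p-values measure only the spread between pools. Enriched pools of a group may have shared a cage, and the p-values would then be too small.

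AP-1 is a dimer of basic leucine zipper proteins. Fos proteins cannot pair with each other and bind DNA only together with a Jun protein, while Jun proteins also pair among themselves. Fos, Fosb, Jun and Junb are immediate early genes: neuronal firing switches on their transcription within minutes, through calcium and MAP kinase signals that reach CREB and the serum response factor at the promoter, and the transcripts are short-lived, whereas Jund is made steadily. In the hippocampus, seizures and exploration of a new place are both known to induce Fos strongly and briefly.

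The array data were uniform. Between pairs of arrays the correlation of log2 signal was 0.971 to 0.990, and the array medians were 70.1 to 74.1. KA_enriched replicate 3 stood somewhat apart, with the lowest mean correlation with the others (0.977) and the highest log2 ratio of 3 prime to 5 prime beta-actin signal, a measure of RNA integrity (0.856, against 0.361 to 0.639 in the other 11 arrays). That ratio was 0.486 to 0.856 in the enriched and 0.361 to 0.639 in the isolated pools. The tissue label was borne out by 5 of 7 hippocampal neuron markers with a named probe set, among them Prox1 of dentate granule cells (225 to 253) and Wfs1 of CA1 pyramidal cells (700.3 to 1010), while 2 were not matched on the array.

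Of the 7 genes, promoter sequence was matched in RefSeq (GRCr8 assembly) for 5. None was matched for Fos or Jun, so their promoters were not searched. Sequences of Junb and Jund are shown because Junb was the Jun-family gene with the largest housing difference and Jund is its steadily made relative. Each line gives the 250 bases upstream of the start site, 5′ to 3′. Capitals mark matches on either strand to the cAMP response element TGACGTCA, which CREB binds, or to its core TGACG, which lies within the full element. The AP-1 site TGANTCA and the CArG box, which the serum response factor binds, were searched in the same way.
Junb, chr19:40080876-40081125, plus strand: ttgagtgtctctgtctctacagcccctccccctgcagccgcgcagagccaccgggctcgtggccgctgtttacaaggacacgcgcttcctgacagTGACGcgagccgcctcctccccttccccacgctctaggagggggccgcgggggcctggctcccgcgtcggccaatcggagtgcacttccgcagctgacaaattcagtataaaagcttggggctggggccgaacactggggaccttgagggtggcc
Jund, chr16:18769772-18770021, minus strand: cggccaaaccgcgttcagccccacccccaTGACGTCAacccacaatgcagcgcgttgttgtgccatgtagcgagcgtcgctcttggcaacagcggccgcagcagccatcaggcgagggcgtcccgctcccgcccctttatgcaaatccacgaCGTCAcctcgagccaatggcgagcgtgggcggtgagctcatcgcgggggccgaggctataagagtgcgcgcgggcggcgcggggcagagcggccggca
The Junb window held 1 core, which began 155 bases upstream of the start. The Jund window held 1 full element, 221 bases upstream, whose strands each hold a core, and 1 further core 98 bases upstream. Of 33469 promoter windows of this length, 1.59% held the full element, 18.2% the core, 6.34% the AP-1 site and 1.5% the CArG box. The last 2 motifs were not matched in either window, and Fosl1 held 2 cores while Fosb and Fosl2 held none of the 4 motifs. The Fosb window (88089185 to 88089434, minus strand) lies within the gene position used here (88082324 to 88089506). The bases upstream of that gene end were therefore not searched, and the absence of motifs does not cover them. A match is a description of the letters only.

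Differences between groups are given on the scale log2(signal + 17), which understates the change of dim genes, and were tested with limma over the 9520 probe sets that passed a filter on mean signal, with Benjamini-Hochberg adjustment and a threshold of 0.05. Only 4 of the 11 member probe sets passed the filter, the 3 of Jun and that of Junb. The other 7 have no adjusted p in that fit, so they were tested by limma without the filter and by an exact two-sided permutation test over the 12 samples, in which the labels of one factor were exchanged within the levels of the other. It has 400 arrangements and a smallest p of 0.005. It was run for 11 probe sets in 2 contrasts, 22 tests with unadjusted p-values, of which 4 were below 0.05.

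Fos, the founding Fos protein gene (chromosome 6, 110852188 to 110855054), gave its higher signals in most enriched pools. On probe set 1375043_at the signal was 73.6, 67.2 and 70.2 in KA_enriched replicates 1, 2 and 3, and 36.7, 73.0 and 72.3 in PBS_enriched. It was 30.1, 34.4 and 29.7 in KA_isolated, and 41.2, 41.6 and 23.6 in PBS_isolated. So 5 of 6 enriched pools lay above every isolated pool, and PBS_enriched replicate 1 lay among the isolated ones. The mean was 70.3 ± 3.23 in KA_enriched, 60.7 ± 20.8 in PBS_enriched, 31.4 ± 2.59 in KA_isolated and 35.4 ± 10.3 in PBS_isolated (SD, n = 3 each).

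The mean Fos signal on 1375043_at was 65.5 in enriched and 33.4 in isolated pools. In the mean of both treatments Fos was higher in enriched than in isolated rats (log2 0.70, SE 0.14, exact permutation p = 0.015). The limma fit without the filter gave an adjusted p of 0.295, so the difference did not pass over all probe sets. After KA the log2 difference was 0.85 (SE 0.19) and the groups did not overlap, and after PBS it was 0.55 (SE 0.19) with overlap at PBS_enriched replicate 1. The interaction, that is the housing difference after KA minus that after PBS, was 0.30 (SE 0.27, limma without the filter, adjusted p = 0.967), so no difference between treatments was shown; leaving out single pools gave 0.058 (without PBS_enriched replicate 1) to 0.48 (without PBS_isolated replicate 3). Without PBS_enriched replicate 1 the housing log2 was 0.82 (SE 0.092) and Fos was called, with a limma adjusted p of 0.00534 over 9520 probe sets, of which 3 were called in all, and 0.0315 without the filter. That pool has the lowest Fos signal of the enriched pools, so leaving it out raises the difference and narrows the spread. The call follows from this removal and adds no separate support. Without KA_enriched replicate 3, the array that stood apart, the log2 was 0.70 (exact permutation p = 0.015).

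The probe set missed the filter narrowly, with a mean log2 of 5.994 against a lowest passing mean of 5.997. It was among the probe sets tested in 9 of 19 alternative fits, which include the fit without the filter. The leave-outs among them each removed an isolated pool or PBS_enriched replicate 1, all low in Fos, so these fits are a selected set. Among the 9 fits Fos was called only without PBS_enriched replicate 1. The limma adjusted p lay between 0.176 and 0.409 in the other 8.

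The other Fos probe set, 1371283_at, was dimmer and also had its lowest values among the isolated pools. Its signal was 32.7, 22.2 and 29.4 in KA_enriched and 14.1, 24.0 and 34.1 in PBS_enriched, against 13.0, 24.7 and 12.3 in KA_isolated and 17.3, 16.4 and 12.3 in PBS_isolated. Here KA_isolated replicate 2 (24.7) and PBS_isolated replicates 1 and 2 (17.3 and 16.4) lay within the enriched range of 14.1 to 34.1. PBS_enriched replicate 1 was again low, and the other enriched pools began at 22.2. The housing log2 was 0.38 (SE 0.13; exact permutation p = 0.035; limma without the filter, adjusted p = 0.801). The exact permutation p did not stay below 0.05 in every alternative. It was 0.05 with quantile normalization and 0.06 without KA_enriched replicate 3. Over the leave-outs it ran from 0.01 (without PBS_enriched replicate 1) to 0.07 (without PBS_isolated replicate 3 or PBS_enriched replicate 3). Over the 12 arrays the correlation of the Fos probe sets was r = 0.86, and r = 0.76 after removal of the group means; both come from the same RNA, so this describes how alike they read and adds no sample.

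**Figure D1:**
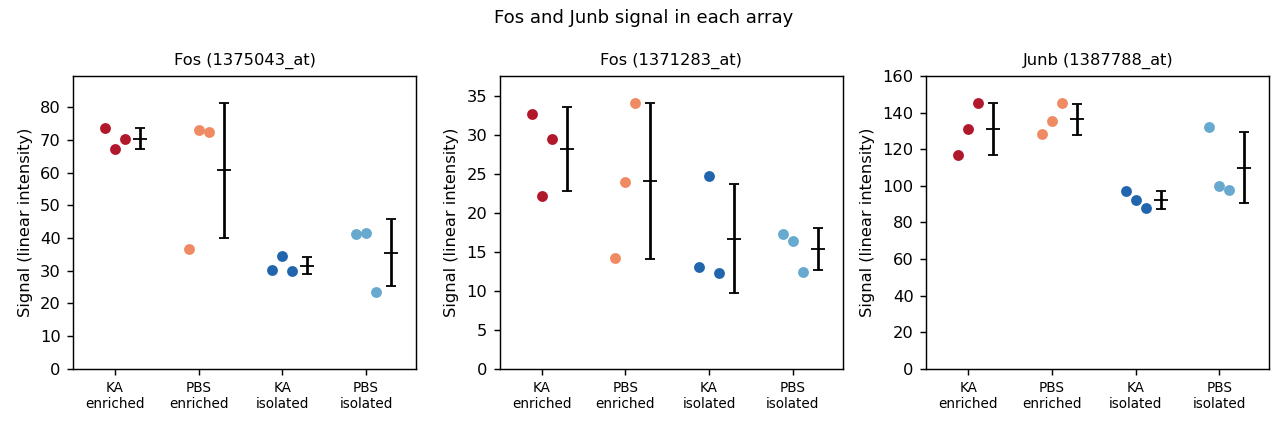
Signal (linear intensity) of the Fos probe sets and of Junb in each array, with 1 point per pool and the mean ± SD of each group of 3 beside it. Fos on 1375043_at lies at 67.2 to 73.6 in 5 enriched pools and at 36.7 in PBS_enriched replicate 1, against 23.6 to 41.6 in the isolated pools; Junb lies at 117 to 146 in enriched and at 87.6 to 132 in isolated pools.

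Fosb, whose truncated protein is known to accumulate in neurons after repeated stimulation, was read near the floor of the array (chromosome 1, 88082324 to 88089506). Its signal was 4.44, 8.71 and 24.2 in KA_enriched and 15.3, 17.1 and 25.7 in PBS_enriched, against 7.43, 22.6 and 13.9 in KA_isolated and 3.12, 3.77 and 13.8 in PBS_isolated. After PBS the enriched pools all lay above the isolated ones, and after KA the groups overlapped. The 20th percentile of the whole table is 17.1, and 8 of these 12 values lie below it. The housing log2 over both treatments was 0.25 (SE 0.18; exact permutation p = 0.305; limma without the filter, adjusted p = 0.891), and 0.11 without KA_enriched replicate 3 or 0.16 without KA_isolated replicate 1. It was 0.62 (SE 0.26) after PBS and -0.13 (SE 0.26) after KA, and the interaction was -0.76 (SE 0.36, limma without the filter, adjusted p = 0.94).

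The Fos-related antigens Fosl1 and Fosl2, which lack the strong activation domain of Fos, showed no housing difference beyond the spread between pools. Fosl1 (chromosome 1, 212183885 to 212192391) lay at 22.7, 33.0 and 40.5 as lowest, median and highest of the 6 enriched pools, and at 25.1, 29.6 and 38.0 in the 6 isolated pools. Its housing log2 was 0.037 (SE 0.092; exact permutation p = 0.695). Fosl2 (chromosome 6, 30017952 to 30039269) lay at 21.6, 28.5 and 42.6 in enriched and at 22.4, 27.9 and 34.7 in isolated pools. Its housing log2 was 0.040 (SE 0.11; exact permutation p = 0.75). For both genes the ranges of enriched and isolated pools lay over one another, and in each the sign of this small difference turned under some alternatives.

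Junb (chromosome 19, 40081126 to 40082910), a Jun protein that is a weaker activator than Jun and is induced by activity, was the tested member with the largest housing difference. Its signal was 117, 131 and 146 in KA_enriched and 129, 135 and 145 in PBS_enriched. It was 97.3, 92.4 and 87.6 in KA_isolated and 132, 99.8 and 97.6 in PBS_isolated. Every KA_enriched pool lay above every KA_isolated pool. After PBS the groups overlapped only at PBS_isolated replicate 1, the highest isolated pool. Group means were 131 ± 14.4 in KA_enriched, 136 ± 8.43 in PBS_enriched, 92.4 ± 4.83 in KA_isolated and 110 ± 19.3 in PBS_isolated (SD, n = 3 each).

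The mean Junb signal was 134 in enriched and 101 in isolated pools. Over both treatments Junb was higher in enriched rats, with a log2 of 0.36 (SE 0.075, limma adjusted p = 0.281, exact permutation p = 0.01). It ranked 12th by p among the 9520 probe sets and did not pass. After KA the log2 was 0.43 (SE 0.11, adjusted p = 0.548) and after PBS 0.28 (SE 0.11, adjusted p = 0.998). The interaction was 0.15 (SE 0.15, adjusted p = 0.961), and 0.028 without PBS_isolated replicate 1. Leaving out each pool in turn gave a housing log2 between 0.32 and 0.42, highest without PBS_isolated replicate 1, and in none of these 12 fits did Junb pass. Without KA_enriched replicate 3 it was 0.32, with an adjusted p of 0.464.

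Between KA and PBS in isolated rats the Junb log2 was -0.20 (SE 0.11, limma adjusted p = 0.999), and all 3 KA_isolated pools lay below all 3 PBS_isolated pools. This value rests in large part on PBS_isolated replicate 1: it was -0.081 without that pool, and as low as -0.27 without PBS_isolated replicate 3. In enriched rats its KA difference was -0.053 (SE 0.11, limma adjusted p = 0.979) with overlapping groups, and over both housings -0.13 (SE 0.075, limma adjusted p = 0.996), with -0.067 without PBS_isolated replicate 1. Fos showed a KA difference of 0.056 over both housings (SE 0.14; exact permutation p = 0.775), with -0.096 (SE 0.19; -0.27 to -0.0062 when single pools were left out) in isolated and 0.21 (SE 0.19) in enriched rats. Neither gene thus had a KA difference in the mean of both housings that passed a test. The isolated rats were kept for 10 days after KA, and no length of stay is given for the enriched rats. These values therefore do not address a brief induction soon after KA. Microglia and macrophage markers moved with KA in the isolated pools, summing to 940 to 1097 in KA_isolated and 604 to 621 in PBS_isolated. In the enriched pools the sums overlapped, at 589 to 923 in KA_enriched and 588 to 971 in PBS_enriched. All 7 markers were higher after KA in the mean of both housings, which includes the shift in the isolated pools. The part of these markers in the Junb and Jun values was not tested.

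Jun, the main partner of Fos (chromosome 5, 115009900 to 115012993), has 3 probe sets, and they differed in their pattern over the groups. Probe set 1369788_s_at read 282, 285 and 284 in KA_enriched and 283, 285 and 285 in PBS_enriched, against 285, 286 and 308 in KA_isolated and 274, 252 and 259 in PBS_isolated. After PBS the enriched pools all lay above the isolated ones. After KA they all lay below, though the highest KA_enriched and the lowest KA_isolated pool both read 285 when rounded. The housing log2 was 0.11 (SE 0.066) after PBS and -0.043 (SE 0.066) after KA. The KA difference in isolated rats was 0.15 (SE 0.066, limma adjusted p = 0.999) and in enriched rats -0.0043 (SE 0.066, limma adjusted p = 0.996). The interaction for this probe set was -0.16 (SE 0.093, adjusted p = 0.953) and did not pass.

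Probe set 1374404_at, annotated from another Jun transcript record, read 113, 99.6 and 96.8 in KA_enriched and 121, 129 and 117 in PBS_enriched, against 99.4, 104 and 101 in KA_isolated and 114, 105 and 119 in PBS_isolated. Within each housing every KA pool lay below every PBS pool. The KA difference over both housings was -0.17 (SE 0.054), with the smallest p that the exact permutation test can give, p = 0.005, and a limma adjusted p of 0.996 over all genes tested. It was -0.13 (SE 0.076) in isolated and -0.22 (SE 0.076) in enriched rats.

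Probe set 1389528_s_at, annotated from the same record as 1374404_at, read 269, 285 and 252 in KA_enriched and 268, 297 and 281 in PBS_enriched, against 296, 270 and 309 in KA_isolated and 292, 273 and 253 in PBS_isolated. Its groups overlapped in every comparison, and over both housings KA minus PBS was 0.013 (SE 0.058, with an exact permutation p of 0.805). The same difference was 0.092 (SE 0.082) in isolated and -0.066 (SE 0.082) in enriched rats. For a KA effect on Jun the probe sets thus gave -0.17, 0.013 and, for 1369788_s_at, 0.074 (SE 0.047; exact permutation p = 0.085). For housing they gave 0.062 (SE 0.054), -0.033 (SE 0.058) and 0.035 (SE 0.047), none with an exact permutation p below 0.195.

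**Figure D2:**
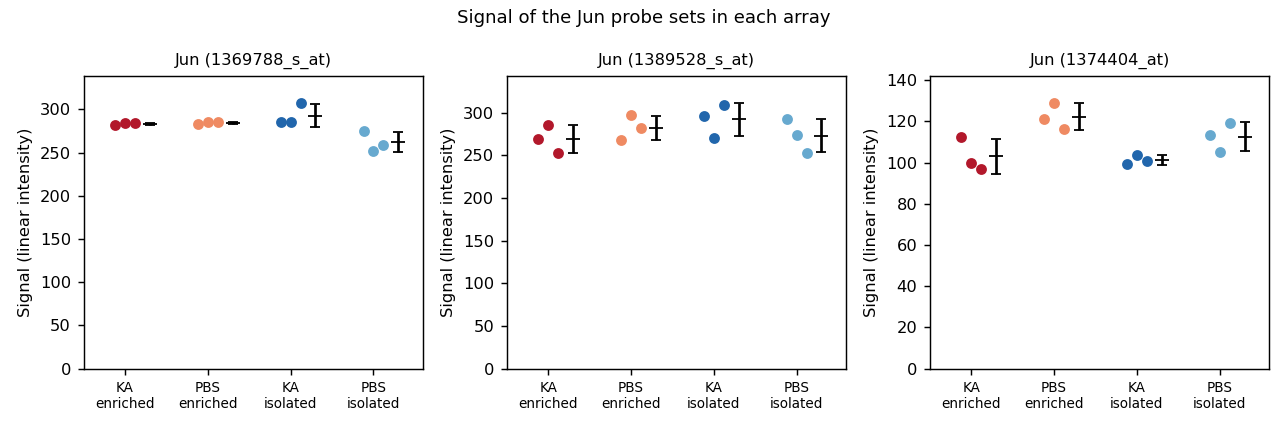
Signal (linear intensity) of the 3 Jun probe sets in each array, with 1 point per pool and the mean ± SD of each group of 3. On 1369788_s_at the enriched pools sit between 282 and 285, below or level with KA_isolated and above PBS_isolated, while on 1374404_at the KA pools are lower than the PBS pools within each housing.

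Jund (chromosome 16, 18768093 to 18769771), the Jun protein most tied to resting cells, was dim on both of its probe sets. Probe set 1387762_s_at read 58.8, 33.4 and 35.4 in KA_enriched and 37.8, 48.8 and 56.6 in PBS_enriched, against 38.4, 47.7 and 44.4 in KA_isolated and 41.0, 23.8 and 42.2 in PBS_isolated. The enriched and isolated ranges overlapped for the most part, with a housing log2 of 0.13 (SE 0.13; exact permutation p = 0.405), which was 0.038 without KA_enriched replicate 1, 0.044 without PBS_isolated replicate 2 and 0.082 without PBS_enriched replicate 3. Probe set 1375768_at lay at 2.32 to 18.4 in enriched and at 2.14 to 17.5 in isolated pools, with a housing log2 of 0.0062 (SE 0.18; exact permutation p = 0.97). The Jund probe sets ran against each other over the 12 arrays (r = -0.59, as a description), so the dimmer one gives little information on Jund.

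**Figure D3:**
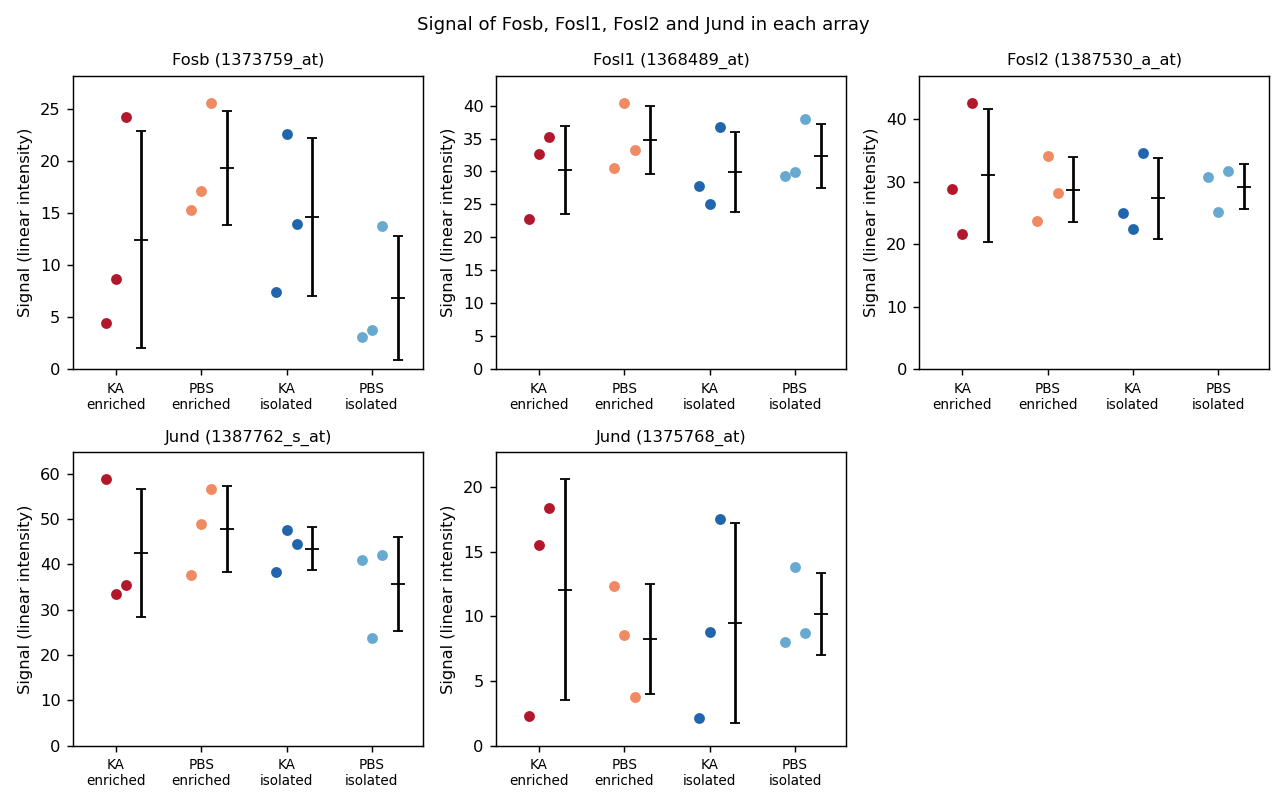
Signal (linear intensity) of Fosb, Fosl1, Fosl2 and the Jund probe sets in each array, with 1 point per pool and the mean ± SD of each group of 3. No panel separates the 6 enriched from the 6 isolated pools; Fosb separates PBS_enriched (15.3 to 25.7) from PBS_isolated (3.12 to 13.8).

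The KA differences of the 5 probe sets of Fosb, Fosl1, Fosl2 and Jund over both housings lay between -0.11 (Fosl1, SE 0.092) and 0.049 (Jund 1375768_at, SE 0.18), with exact permutation p between 0.27 and 0.97. The other Fos probe set, 1371283_at, had 0.099 (SE 0.13; exact permutation p = 0.52). For Fosb the KA difference was 0.029 (SE 0.18), for Fosl2 -0.0061 (SE 0.11) and for Jund 1387762_s_at 0.041 (SE 0.13).

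**Figure D4:**
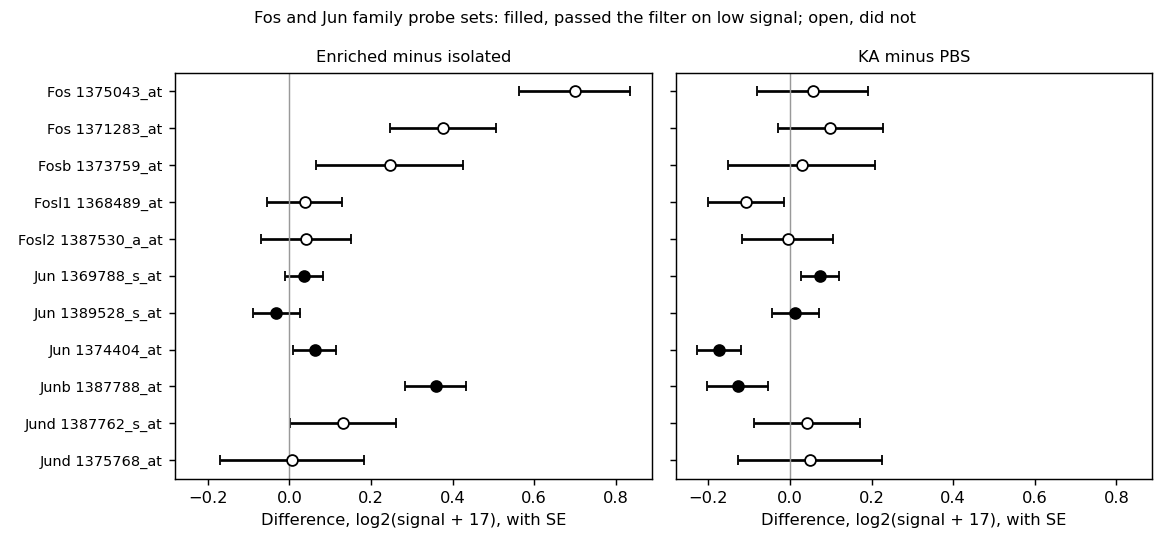
Difference in log2(signal + 17) for each of the 11 probe sets, enriched minus isolated over both treatments on the left and KA minus PBS over both housings on the right, with bars of 1 SE from limma. Fos (0.70 and 0.38) and Junb (0.36) stand highest for housing, and Jun 1374404_at (-0.17) lowest for KA.

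Counted over the family, 0 of the 4 tested member probe sets were called in any of the 7 limma contrasts. The share called among all 9520 probe sets was 0.021% for housing over both treatments, 0.0105% each for housing after PBS, for KA in isolated rats and for KA over both housings, and 0% each for housing after KA, for KA in enriched rats and for the interaction. Each contrast but the interaction had 1 tested member with an unadjusted p under 0.05, and the interaction had 0. That member differed by contrast. For housing over both treatments, after PBS and after KA it was Junb. For KA in isolated rats it was Jun 1369788_s_at, and for KA in enriched rats and over both housings Jun 1374404_at. Among all probe sets the share with an unadjusted p under 0.05 was 5.64% (537) for housing over both treatments. It was 4.21% (401) for housing after PBS and 7.02% (668) for housing after KA. It was 4.31% (410) each for KA over both housings and for KA in isolated rats, 4.98% (474) for KA in enriched rats and 4.97% (473) for the interaction, so with 4 members these counts carry little weight.

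Groups that did not overlap were also counted in either direction. Between KA and PBS in isolated rats 3 of the 4 tested members were apart, 1 higher (Jun 1369788_s_at) and 2 lower (Jun 1374404_at and Junb), where 10.8% of all probe sets were. In enriched rats 1 of 4 was apart against 9.62%. For housing it was 1 of 4 after PBS against 11.6%, 2 of 4 after KA against 10.8%, and 0 of 4 over both treatments against 0.305%. Of the 7 dim member probe sets, 0 were apart between KA and PBS in either housing, 1 was apart for housing after PBS (Fosb, higher), 1 for housing after KA (Fos 1375043_at, higher) and 0 for housing over both treatments. The 3 Jun probe sets read the same gene in the same pools, so they are not independent.

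Other genes around AP-1 were taken from lists of known partners, regulators and targets. Of 12 dimer partners 8 were on the array and 6 were tested; 4 were higher and 2 lower in enriched rats, 0 were called, and the median log2 was 0.013, against 0.0016 over 6923 genes tested. Those of smallest p were Atf2, a CREB-family partner of Jun (0.048, SE 0.073), the stress regulator Atf4 (-0.035, SE 0.060), the small Maf protein Mafg (-0.038, SE 0.072) and Jdp2, a repressor that dimerises with Jun (0.050, SE 0.094), with limma adjusted p from 0.942 to 0.961. Atf3, a partner induced by injury, had a mean signal of 1.30 and was not tested.

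Of 24 upstream kinases and transcription factors 15 were on the array and 13 were tested, with 6 higher, 7 lower and 0 called for housing, and a median log2 of -0.041. Creb1, which drives Fos through the cAMP response element, averaged 128 ± 29.2 in KA_enriched and 133 ± 9.59 in PBS_enriched, against 104 ± 11.3 in KA_isolated and 104 ± 13.7 in PBS_isolated (SD, n = 3 each). Its log2 was 0.28 (SE 0.094, limma adjusted p = 0.832), and enriched pools at 101 to 159 overlapped isolated pools at 90.8 to 119. Srf, the serum response factor, had 0.079 (SE 0.053), its cofactor Elk1 -0.11 (SE 0.078) and the neuronal factor Mef2c -0.091 (SE 0.074), with limma adjusted p from 0.879 to 0.890.

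Of 16 genes known as AP-1 targets in some tissue, 14 were on the array and 8 were tested, with 5 higher, 3 lower and 0 called for housing, and a median log2 of 0.016. The adhesion receptor Cd44 had -0.15 (SE 0.095), the cyclin Ccnd1 0.098 (SE 0.081), the plasminogen activator Plat 0.11 (SE 0.10) and the opioid precursor Penk 0.026 (SE 0.073), with limma adjusted p from 0.879 to 0.977. For KA over both housings 0 genes of these 3 lists were called either, with medians of -0.050 for the partners, -0.026 for the regulators and 0.032 for the targets, against -0.00051 over all genes.

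Most other immediate early genes tested had higher values in enriched rats, as Fos and Junb had. Their list was also chosen with earlier results of these data known. Of 22 listed, 19 were on the array and 12 were tested; 10 were higher and 2 lower in enriched rats, where 50.8% of all genes were higher, and the median log2 was 0.26. For KA over both housings 4 were higher and 8 lower, 0 were called, and the median was -0.051. Egr1, a zinc finger transcription factor, was the only one called (0.45, SE 0.065, limma adjusted p = 0.042), a call that was lost in 17 of 19 alternatives (adjusted p from 0.0325 to 0.491). Arc (0.58, SE 0.093, adjusted p = 0.105), Egr4 (0.56, SE 0.095, adjusted p = 0.112) and Nr4a2 (0.33, SE 0.070, adjusted p = 0.284) did not pass.

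The genes whose pattern over the 12 arrays was most like that of Junb, among 6921 genes, were Egr1 (r = 0.91), Notch3 (r = 0.91), Arc (r = 0.87), Unc5b (r = 0.84) and Gpx8 (r = 0.83). After removal of group means r was 0.65, 0.73, 0.50, 0.68 and 0.66 for the same genes. Most like Fos on 1375043_at were Gtf3c2 (r = 0.87), Egr1 (r = 0.87), Unc119b (r = 0.86), Prpf18 (r = 0.86) and Cgref1 (r = 0.83), with r of 0.72, 0.52, 0.65, 0.64 and 0.61 after removal of group means. Egr1 was on both lists. Each pair of values comes from the same array, so these are descriptions of likeness. Fos and Junb themselves had r = 0.78, and r = 0.40 after removal of group means.

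In bulk tissue fewer cells of a type and less RNA per cell cannot be told apart, so the values of other cell types are set beside the housing difference. Microglia and macrophage markers summed to 588 to 971 in enriched and 604 to 1097 in isolated pools, and 1 of 7 was higher in enriched rats. Hippocampal neuron markers summed to 4613 to 5838 in enriched and 5166 to 5946 in isolated pools, with 2 of 5 higher. Thalamus and striatum markers summed to 336 to 401 in enriched and 322 to 373 in isolated pools, with 4 of 5 higher. Endothelial markers summed to 446 to 520 and 446 to 511, with 1 of 4 higher, and choroid plexus markers to 225 to 853 and 230 to 2904, with 1 of 4 higher. Of all markers on the array only Kl of choroid plexus averaged below 17. Astrocyte markers summed to 6636 to 7798 in enriched and 6777 to 8113 in isolated pools, with 2 of 5 higher. Oligodendrocyte markers summed to 7911 to 9297 in enriched and 8005 to 8798 in isolated pools, with 4 of 4 higher, and blood markers to 2975 to 4164 and 2879 to 3560, with 2 of 2 higher. The enriched and isolated ranges overlapped for each of these lists, and with the beta-actin ratio as a covariate the housing log2 was 0.34 (SE 0.090) for Junb and 0.75 (SE 0.16) for Fos; the part of these markers in the Fos and Junb values was not tested.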

How the data were processed

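The deposited values are 1 intensity per probe set and array on a linear scale, already scaled when deposited, as the values show: the 2% trimmed mean of every array is 150. How probes were summarised is not stated in the labels. From these, log2(intensity + 17) was computed from the deposited values; 17 is about the 20th percentile of the table. After 57 control probe sets were set aside, the brighter 60% by mean log2 (9520 of 15866) were fitted with limma 3.58.1 in R 4.3.3 (4 group means, 7 contrasts, empirical Bayes, Benjamini-Hochberg). The code was tested on simulated data. Genes were named from the array annotation: 12789 probe sets had 1 symbol, 312 several and 2822 none listed. A list gene is represented by its brightest probe set; named list genes are the 4 of smallest housing p among those tested. The precision is limited by 3 pools per group. Replicate numbers are shared by the groups, but the labels do not say that a number marks a shared litter, cage or day, so no pairing was used. Of 18 same-numbered pairs 2 deviated together at over r = 0.1. The highest r was 0.199 for same-numbered and 0.101 for other pairs, and 7 of 12 samples were most like their own number. Alternatives were the pseudocount, filter, scaling, array weights, beta-actin covariate, replicate block, the groups compared alone and each pool left out. The members and lists were chosen with earlier results of these data known. Gene positions are those of GRCr8.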

Additional observations from a re-analysis of the deposited data

Results flagged for a closer look

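On Jun probe set 1369788_s_at the housing difference had opposite directions in the 2 treatments, with no overlap of the pools in either. The 3 KA_enriched pools (282 to 285) lay below the 3 KA_isolated pools (285 to 308), and the 3 PBS_enriched pools (283 to 285) lay above the 3 PBS_isolated pools (252 to 274). The housing log2 was -0.043 after KA (SE 0.066, limma adjusted p = 0.927), smaller than its error, and 0.11 after PBS (SE 0.066, limma adjusted p = 0.998). The housing log2 after KA minus that after PBS was -0.156 (SE 0.093, limma adjusted p = 0.953), so the difference between treatments did not pass.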

How the results depend on the processing

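Of 1154 alternative values of 61 log2 differences, 1075 kept direction and side of the threshold, 60 turned sign, 2 passed newly and 17 no longer passed (all Egr1). The housing differences of Fos and Junb kept their sign in every alternative. Members called for housing over both treatments numbered 0 to 1 when single pools were left out. Fos was the 1 called, without PBS_enriched replicate 1, its lowest enriched pool, where 3 of 9520 probe sets were called. The other leave-outs called 1 to 2. Arc was called without KA_enriched replicate 1 (adjusted p = 0.0229). With the replicate block limma gave Junb 0.36 (adjusted p = 0.419) and Fos 0.70 (adjusted p = 0.423), and 7 of 12 samples were most like their own number. Probe sets called for housing over both treatments were 2, against 1 with pseudocount 5, equal medians, the replicate block, array weights or the beta-actin covariate; for KA over both housings 1, against 0 without the filter; for housing after PBS 1, against 2 with array weights. For the remaining sign changes the cause was not tested. With array weights Fosb had -0.015 and Jund 1375768_at -0.045 for KA, and Jund 1375768_at -0.063 and Penk -0.0089 for housing. With the beta-actin covariate the housing values were -0.022 (Fosl1), -0.021 (Fosl2), -0.086 (Jund 1375768_at), 0.013 (Atf4) and -0.017 (Penk), and Jun 1369788_s_at had 0.0087 for KA in enriched rats. With equal medians Fosl2 had 0.0012 for KA and Jun 1369788_s_at 0.0052 for KA in enriched rats. With pseudocount 5 Jund 1375768_at had -0.0061 for housing. With quantile normalization Fosl1 had -0.0016 and Jund 1375768_at -0.012 for housing, and Fosl2 0.0028 for KA. Leaving out single pools gave, for KA over both housings, -0.067 to 0.12 (Fos 1375043_at), -0.11 to 0.13 (Fosb), -0.090 to 0.067 (Fosl2), -0.012 to 0.039 (Jun 1389528_s_at), -0.052 to 0.095 (Jund 1387762_s_at) and -0.056 to 0.18 (Jund 1375768_at). For KA in enriched rats it gave -0.038 to 0.33 (Fos, 0.21 with all pools) and -0.12 to 0.018 (Junb). For housing it gave -0.0021 to 0.097 (Fosl1), -0.044 to 0.11 (Fosl2), -0.10 to 0.14 (Jund 1375768_at), -0.00046 to 0.11 (Atf2), -0.081 to 0.0031 (Mafg), -0.0066 to 0.12 (Jdp2) and -0.030 to 0.088 (Penk). Signal near the floor limits Fosb, Jund 1375768_at and the dimmer Fos probe set.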

Other observations

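Jun probe set 1369788_s_at, singled out after its values were seen, read nearly the same in all 6 enriched pools: the SD of its log2 signal was 0.0057 over these arrays and 0.099 over the 6 isolated arrays. The median SD over 9520 probe sets was 0.12 in enriched and 0.11 in isolated arrays, and 0 probe sets had a lower SD than this one in the enriched arrays. Some probe set has to be the lowest. The other Jun probe sets had SDs of 0.077 (1389528_s_at) and 0.14 (1374404_at) in the enriched arrays.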
